A study of Mus musculus with 4 samples.

Results

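The immunoproteasome and peptide loading genes are 10 mouse genes that cut cytosolic proteins into peptides and place them on MHC class I. They were taken by symbol alone (Psmb8, Psmb9, Psmb10, Psme1, Psme2, Tap1, Tap2, Tapbp, Erap1 and Nlrc5), and all 10 were among the 31053 genes of the files. Their RNA was read in single cells from orthotopic B6KPC3 pancreatic tumours, grown in the pancreas of C57BL/6 mice and enriched for CD45, the surface marker of blood-derived cells, by sorting. Mice with tumours of 7 days received AT38, a compound known here by its code name, at 30 mg/kg/d in 1% carboxymethyl cellulose in water, or that vehicle alone, by intraperitoneal injections given in pairs each day for 7 days. Each group had 2 libraries and each library pooled 4 mice, so a library is the replicate, mice cannot be told apart within it, and p-values measure the spread between pools. Every group carried the same tumour line and no genetic change of the host was stated. Age and sex were not given in the labels, and the stated question is what happens to the immune infiltrate when nitrosative stress is interrupted.

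Proteasomes in most cells carry the constitutive catalytic subunits Psmb5, Psmb6 and Psmb7. In cells of the immune system, and in other cells exposed to interferon, newly built particles take up Psmb8, Psmb9 and Psmb10 in their place, which changes the peptides that are cut. Psme1 and Psme2 form the PA28 cap that speeds peptide release, the Tap1 and Tap2 transporter carries peptides into the endoplasmic reticulum, Erap1 trims them there, and Tapbp (tapasin) bridges the transporter to empty MHC class I. Nlrc5 is a transactivator of MHC class I genes and of several genes of this pathway. Cells that present tumour antigen to CD8 T cells use this machinery, as do tumour cells when they are recognised.

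Of the 10 genes, 4 lie side by side in the MHC on chromosome 17 (GRCm38, GENCODE M21). Psmb9 (chr17:34181987-34187764, minus strand) overlaps Tap1 (chr17:34187553-34197225, plus strand) by 212 bp at their starts, head to head. Psmb8 (chr17:34197721-34201454, plus strand) follows 495 bp after Tap1, and Tap2 (chr17:34203527-34216321, plus strand) 2072 bp after Psmb8. Together they span 34335 bp. Tapbp (chr17:33915899-33929292, plus strand) is on the same chromosome. Psme1 (chr14:55578123-55581529, plus strand) and Psme2 (chr14:55587441-55591113, minus strand) are neighbours 5911 bp apart on chromosome 14. Psmb10 (chr8:105935735-105938444, minus strand) and Nlrc5 (chr8:94434356-94527272, plus strand) are on chromosome 8, and Erap1 (chr13:74639568-74693201, plus strand) is on chromosome 13. The annotation places an opposite-strand gene over part of every member but Psme2. On the same strand it places Zbtb22 over part of Tapbp and Mir7072 over part of Nlrc5. Reads could in part be split by the counting where the strand is shared, and elsewhere only if the counting ignored strand. Its settings are not given in the sources used here.

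**Figure D1:**
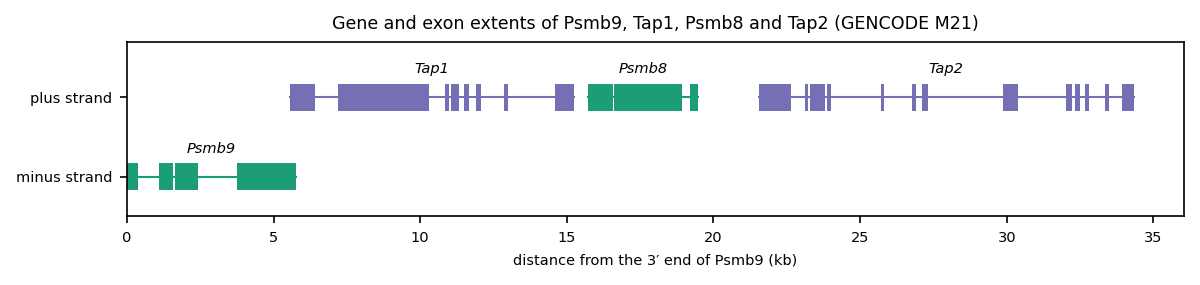
Extents of Psmb9, Tap1, Psmb8 and Tap2 by strand, with boxes for the union of annotated exons, against distance from the 3′ end of Psmb9 in kb. Psmb9 and Tap1 meet head to head with an overlap of 212 bp, and the 4 genes span 34335 bp.

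RefSeq promoter windows (GRCm38.p6, 250 bases before to 50 after the RefSeq start, 300 bases) matched 8 of the 10 genes by symbol. Tap2 and Nlrc5 had no entry. RefSeq starts can differ from the GENCODE starts given above. The windows of Psmb8, Psmb9, Psme1, Tapbp and Erap1 lie wholly inside the GENCODE extents of these genes. The windows below are those of Tap1, Psmb8 and Psme2, shown because these genes rose with AT38 in neutrophils and because the Tap1 window is also, over 275 of its 300 bases on the other strand, the window of Psmb9. They lie at chr17:34187306-34187605 (Tap1, plus strand), chr17:34197945-34198244 (Psmb8, plus strand) and chr14:55591052-55591351 (Psme2, minus strand), written 5′ to 3′, and capitals mark matches to the 3 motifs named after them.
Tap1: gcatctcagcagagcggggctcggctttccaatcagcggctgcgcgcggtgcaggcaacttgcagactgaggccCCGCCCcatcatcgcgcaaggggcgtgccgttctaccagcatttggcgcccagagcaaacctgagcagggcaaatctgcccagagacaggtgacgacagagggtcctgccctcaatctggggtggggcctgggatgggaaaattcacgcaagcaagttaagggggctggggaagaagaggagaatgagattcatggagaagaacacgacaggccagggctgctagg
Psmb8: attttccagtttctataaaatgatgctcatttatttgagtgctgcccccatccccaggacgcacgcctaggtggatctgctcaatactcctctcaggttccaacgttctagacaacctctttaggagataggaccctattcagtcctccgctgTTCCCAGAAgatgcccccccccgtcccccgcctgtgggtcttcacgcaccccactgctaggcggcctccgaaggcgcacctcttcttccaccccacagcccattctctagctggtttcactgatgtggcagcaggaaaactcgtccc
Psme2: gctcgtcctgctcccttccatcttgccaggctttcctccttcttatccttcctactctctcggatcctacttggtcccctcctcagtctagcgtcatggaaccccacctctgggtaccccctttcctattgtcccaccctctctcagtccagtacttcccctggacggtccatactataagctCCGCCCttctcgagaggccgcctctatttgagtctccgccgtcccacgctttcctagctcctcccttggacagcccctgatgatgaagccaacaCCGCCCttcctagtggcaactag

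The letters searched, on both strands, were GAAANNGAAA for the interferon-stimulated response element, TTCNNNGAA for the gamma-activated site, and GGGCGG for the GC box. Over all 32544 promoter windows of the table, 3.45% held the first, 8.33% the second and 35.9% the third. Positions are counted from the RefSeq start. Psmb8 held TTCNNNGAA at position -97, and Tap1 held a GC box at -176. Psme2 held GC boxes at -67 and 28 in the printed window, and at -147 and -53 in the window of a second RefSeq start. Of the windows not printed, Psmb9 held a GC box at -55, Psme1 held GAAANNGAAA at 10 and a GC box at -109, and Tapbp held a GC box at -51. Erap1 held GAAANNGAAA at -4 and a GC box at 13, and Psmb10 held none of the 3. GAAANNGAAA was thus found for 2 of the 8 genes, TTCNNNGAA for 1 and the GC box for 6, as letters only. The GC boxes of Tap1 and Psmb9 are the same bases read on opposite strands.

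Of 18001 cell barcodes, 14242 were kept, 2909 and 4723 in the vehicle libraries and 3507 and 3103 in the AT38 libraries, with median depths of 3005 to 4154 UMIs per cell. Cells were clustered without the pathway genes and named by fixed markers, which left 1158 cells unnamed, and 24 barcodes occurred in 2 libraries (13 among the kept cells). The classes were neutrophils (4487 cells), T cells (2784), mononuclear phagocytes (2100, of them 1471 macrophages and 629 monocytes), dendritic cells (1502), B cells (1228), NK cells (535), epithelial cells (220) and mast cells with basophils (115). The epithelial class carried epithelial markers at 2438 to 4321 CPM in sum, but the labels do not say whether these cells are tumour cells, and the sort was for CD45. Levels below are CPM, the UMIs of a gene per 1000000 UMIs of the class in a library. They are compared within a gene and never between genes, and the classes are ordered without a test because they came from clusters of the same cells.

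Psmb8 and Psmb9 were highest in dendritic cells and lowest in epithelial cells, while the remaining inducible catalytic subunit, Psmb10, was highest in monocytes. Psmb8, which replaces Psmb5, stood at 754.5 ± 73.68 CPM in type 1 dendritic cells and 701.5 ± 82.22 CPM in mature dendritic cells (SD, n = 4 libraries), whose ranges overlapped. All libraries of both classes were above those of every other class. Next came type 2 dendritic cells (425.5 ± 48.37 CPM), regulatory T cells (353.4 ± 76.93 CPM) and CD8 T cells (290.4 ± 13.99 CPM), and each neighbour from type 2 dendritic cells down to B cells (147.7 ± 32.17 CPM) overlapped the next. Epithelial cells held 84.82 CPM (vehicle 1), 55.22 CPM (vehicle 2), 60.74 CPM (AT38 1) and 66.19 CPM (AT38 2), below all libraries of the other classes. The highest class mean was 11.3-fold the lowest. Psmb9, the partner of Psmb6, ranged 14.1-fold. It was highest in type 1 dendritic cells (631.2, 570.7, 656.5 and 784.3 CPM in the same order of libraries), then in mature dendritic cells (397.9, 433.0, 478.9 and 568.5 CPM), without overlap between the 2 classes. It was lowest in epithelial cells (46.8 ± 10.05 CPM). Psmb10, the partner of Psmb7, had another order: monocytes were highest (205.7, 191.6, 212.4 and 214.5 CPM), type 1 dendritic cells had rank 5 (128.3 ± 18.43 CPM), and mast cells and basophils lowest (47.4 ± 17.51 CPM). Its range was 4.35-fold, and every class overlapped the next in the order. Epithelial cells held rank 9 of 13 for Psmb10, at 94.42 ± 20.76 CPM.

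Both subunits of the PA28 cap were highest in mature dendritic cells. Psme1 was at 946.0 ± 117.3 CPM there and at 891.2 ± 63.39 CPM in type 1 dendritic cells, which overlapped each other and no other class. Neutrophils were lowest for Psme1 (228.7 ± 38.85 CPM). Psme2 was at 704.9, 755.0, 789.3 and 1033 CPM in the libraries of mature dendritic cells, against 321.5, 315.7, 292.2 and 361.7 CPM in type 1 dendritic cells, so that its 2 highest classes did not overlap. Psme2 was lowest in B cells (90.44 ± 30.73 CPM), a 9.07-fold range. A near copy, Psme2b, had UMIs equal to 3.47% of those of Psme2 in epithelial cells, 9.67% in neutrophils and 28.2% in B cells, where the split of reads between the copies matters most.

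The transporter genes were highest in regulatory T cells and type 1 dendritic cells. Tap1 stood at 349.2 ± 14.79 CPM in type 1 dendritic cells and 323.4 ± 64.3 CPM in regulatory T cells, and at 34.12 ± 9.134 CPM in epithelial cells (10.2-fold). Tap2 had the same 2 classes in the other order, with 229.4, 277.3, 325.3 and 283.4 CPM in regulatory T cells and 242.5, 251.7, 227.9 and 244.8 CPM in type 1 dendritic cells. These overlapped each other and no further class. Epithelial cells held 11.55, 19.11, 16.35 and 14.35 CPM of Tap2, below every library of the other classes, an 18.2-fold range. Tapbp was the flattest of the transport and loading genes: mature dendritic cells were highest (487.8 ± 60.83 CPM), followed by neutrophils (388.3 ± 47.6 CPM), with epithelial cells lowest (118.1 ± 13.17 CPM), a 4.13-fold range. Erap1, the trimming peptidase, was highest in CD8 T cells (66.98 ± 6.383 CPM), NK cells (66.36 ± 12.54 CPM) and CD4 T cells (59.24 ± 9.126 CPM), with B cells (33.23 ± 7.705 CPM), neutrophils (28.33 ± 5.377 CPM) and epithelial cells (19.1 ± 4.997 CPM) at the lower end and overlap between all neighbours.

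Nlrc5 was highest in T cells and mature dendritic cells. It stood at 144.4, 129.4, 122.0 and 115.9 CPM in CD8 T cells, 118.7 ± 15.55 CPM in regulatory T cells, 104.1 ± 8.798 CPM in mature dendritic cells and 101.5 ± 12.74 CPM in CD4 T cells. NK cells (69.64 ± 7.84 CPM) lay below those 4 and above all other classes without overlap on either side. Type 1 dendritic cells, highest for Psmb8, Psmb9 and Tap1, held only 35.84 ± 5.267 CPM of Nlrc5. In epithelial cells it was at 5.973, 8.495, 5.256 and 7.975 CPM, from 50 UMIs in 220 cells, the lowest of the 13 classes and an 18.5-fold range.

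**Figure D2:**
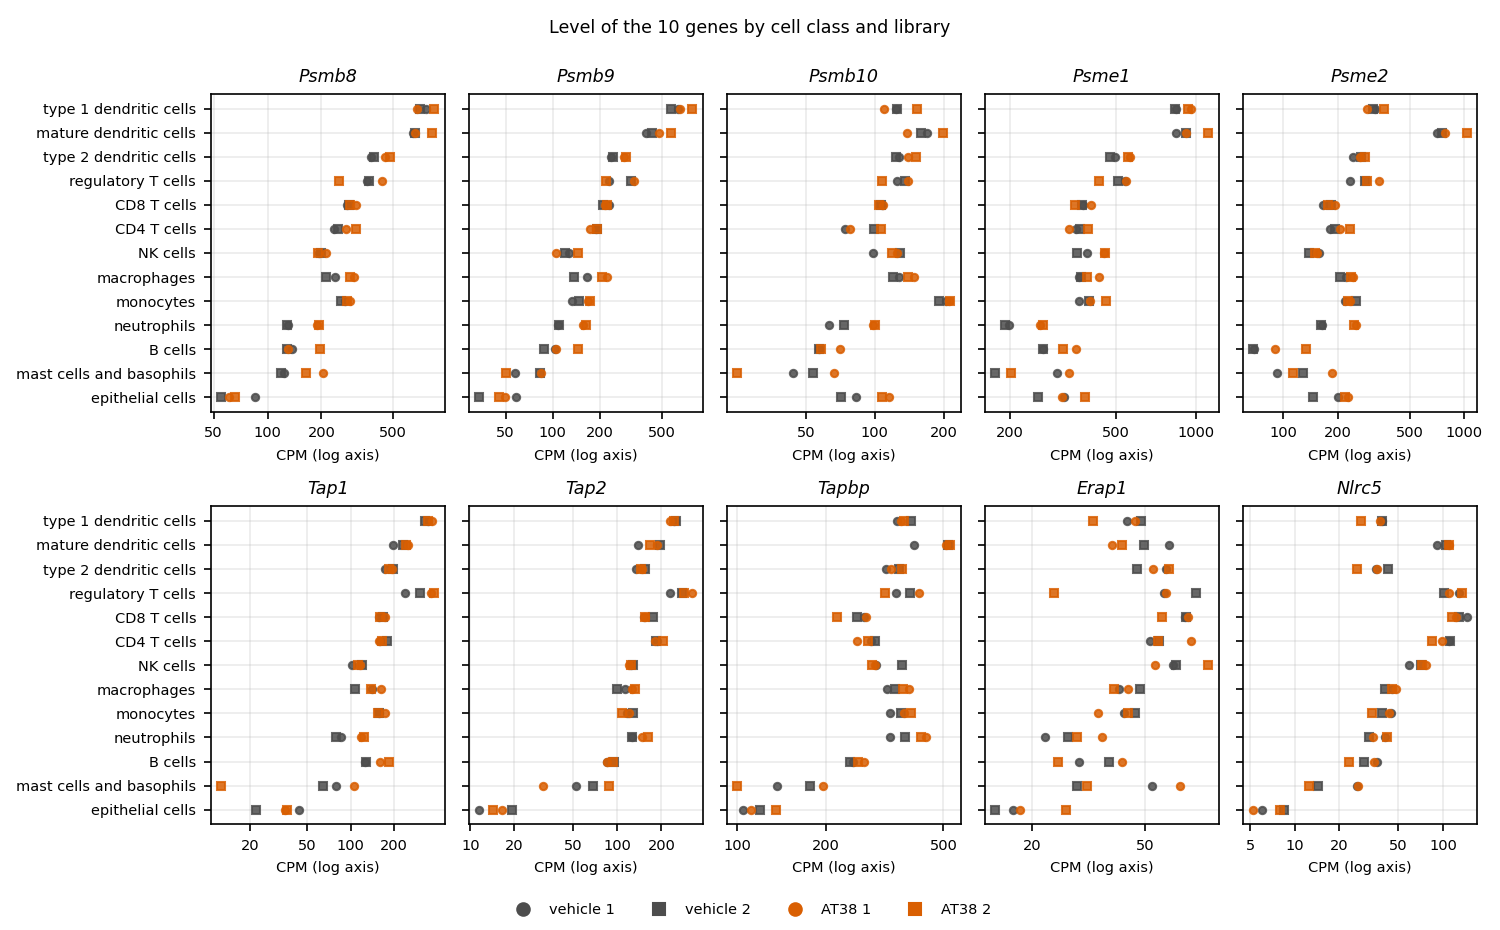
CPM (log axis, a separate scale for each gene) of the 10 genes in 13 cell classes, with 1 point for each of 2 vehicle and 2 AT38 libraries. Type 1 and mature dendritic cells are at the right for Psmb8, Psmb9, Psme1 and Psme2, CD8 T cells for Nlrc5, and epithelial cells at the left for 7 genes.

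Summed over the 10 genes, mature dendritic cells held 4148 CPM and type 1 dendritic cells 3793 CPM, against 2688 in regulatory T cells, 1891 in macrophages, 1510 in neutrophils and 917.4 in epithelial cells. Per cell the order at the lower end differed, because cells differ in RNA content: type 1 dendritic cells carried 72.9 UMIs of these genes per cell, epithelial cells 32.6 and neutrophils 3.9. Depth was 25110 to 42810 UMIs per epithelial cell and 2300 to 2729 per neutrophil. The epithelial signal was uneven. Of its 504 Psmb8 UMIs, 42.86% came from 5 of the 220 cells and 93 from 1 cell, and 64 cells had any. For Psme1, 153 epithelial cells had a UMI and the top 5 held 20.89%. Neutrophil markers summed to 14.35 to 686.7 CPM and macrophage markers to 23.93 to 258.7 CPM in the epithelial class. Their part in its levels was not tested.

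Across 64 profiles (16 classes, some within others, by 4 libraries), Psmb8 and Psmb9 were the members most alike, with a Pearson correlation of 0.96 on log2 CPM. Tap1 was most like Psmb9 (0.88), its head-to-head neighbour, Psme1 most like Psmb8 (0.86) and Nlrc5 most like Tap2 (0.79). Erap1 was the member least like the others (0.51 with their average, 0.13 with Psme2). Among 6019 genes outside the pathway lists, those closest to the average of the 10 were Wdr1 (0.926), Sh3bgrl3 (0.899), Lsp1 (0.89), Tmsb4x (0.889), Sh3bp1 (0.881), Apaf1 (0.878), Actb (0.865), Abracl (0.855), Myo1g (0.853) and Orai1 (0.848). Within the wider lists, Tyk2 (0.836), a kinase that carries interferon signals, was the non-member closest to it. The profiles share libraries, depth and in part cells, so these correlations are descriptions.

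The exchange of subunits can be followed as a share, the UMIs of the inducible gene over those of the inducible and constitutive genes of a pair. Capture differs between genes, so a share is read between classes and libraries and not as a share of protein. Psmb8 made up 86.7% of Psmb8 and Psmb5 UMIs in mature dendritic cells, the highest class mean. In epithelial cells it made up 24.6%, 19.5%, 15.8% and 16.7% in vehicle 1, vehicle 2, AT38 1 and AT38 2, the lowest of the classes in every library. Psmb9 made up 80.8% of its pair in type 1 dendritic cells and 14.6% to 20.4% in epithelial cells. Psmb10 made up 65.5% of its pair in monocytes and 27.0% to 43.0% in epithelial cells.

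**Figure D3:**
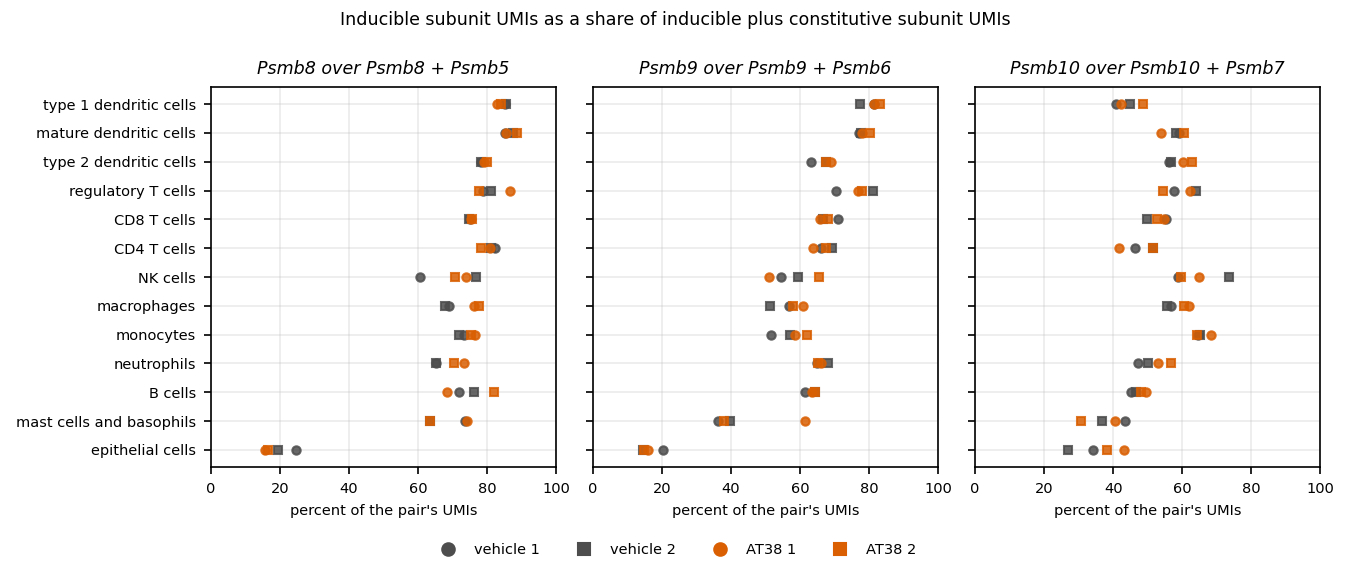
Inducible subunit UMIs as percent of the UMIs of each inducible and constitutive pair, by cell class, with 1 point per library (2 vehicle, 2 AT38). Epithelial cells lie at 15.8% to 24.6% for Psmb8 and 14.6% to 20.4% for Psmb9, apart from the other classes.

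The share of Psmb8 was higher with AT38, without overlap, in neutrophils and mononuclear phagocytes. In neutrophils it was 65.2% and 65.1% with vehicle and 73.4% and 70.4% with AT38, 6.75 points higher. In mononuclear phagocytes it was 70.0% and 69.0% with vehicle and 76.3% and 77.0% with AT38, 7.12 points higher. Psmb10 had the same direction in neutrophils (47.3% and 50.1% against 53.1% and 56.8%) and in phagocytes (58.9% and 58.7% against 64.0% and 61.9%). Psmb9 was higher with AT38 in phagocytes (55.9% and 52.8% against 60.2% and 58.9%) and dendritic cells (73.3% and 74.4% against 75.9% and 77.0%), while in neutrophils the groups overlapped (64.9% and 68.2% against 66.0% and 65.3%). The Psmb8 shares overlapped in dendritic cells (82.8% and 84.0% against 82.5% and 84.6%), T cells (78.3% and 77.3% against 78.2% and 76.9%) and mast cells and basophils (73.7% and 63.5% against 74.2% and 63.4%). Within dendritic cells, in the type 1 cells the share was lower with AT38, without overlap (85.1% and 85.6% against 83.0% and 84.0%). In the type 2 cells it was higher without overlap (78.4% and 78.4% against 79.2% and 79.9%). The CD4 T cell share was lower (82.2% and 81.1% against 81.0% and 78.4%) and the CD8 share higher (75.2% and 74.9% against 75.3% and 75.8%), both without overlap. Mature dendritic cells and regulatory T cells overlapped. The epithelial share of Psmb8 was 5.81 points lower with AT38, without overlap. That of Psmb10 went the other way, 9.99 points higher without overlap (34.2% and 27.0% against 43.0% and 38.2%), and the epithelial Psmb9 shares overlapped. The top 5 of the 220 epithelial cells held 42.86% of the Psmb8 and 28.11% of the Psmb10 UMIs. The part of single cells in these shares was not tested. Psmb10 shares also did not overlap in B cells (2.77 points, AT38 minus vehicle) and T cells (-0.87 points). The exact two-sided permutation test gave p = 0.333 for each difference without overlap, the smallest p that 2 against 2 libraries allow, so none could pass.

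AT38 was compared with vehicle in each class on summed UMIs with the edgeR quasi-likelihood test and Benjamini-Hochberg adjustment over all genes tested in the class, with a call at an adjusted p under 0.05. Fold changes are log2 values of AT38 over vehicle, scaled by TMM (a correction for libraries whose few strongest genes differ), while printed CPM are not so scaled. Without TMM the median of all genes moves by 0.12 upward in neutrophils and by 0.11 downward in epithelial cells. A lower level can come from fewer cells of a subtype or less RNA per cell, which summed counts cannot tell apart.

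In neutrophils 4 of the 10 genes rose with AT38 and none fell, where 1.58% of the 8417 genes tested rose and 3.74% fell (5.32% either way). Psme2, a PA28 subunit, was at 164.7 and 162.1 CPM with vehicle and 251.3 and 247.5 CPM with AT38 (log2 change 0.49 ± 0.10 SE, 1.4-fold, adjusted p = 0.00308). Psmb8 was at 130.2 and 127.7 CPM against 189.4 and 194.2 CPM (0.45 ± 0.10, adjusted p = 0.00906). Psmb9 was at 107.9 and 109.9 CPM against 155.4 and 164.4 CPM (0.43 ± 0.11, adjusted p = 0.0175). The 2 AT38 libraries stood above the 2 vehicle libraries for all 3. Tap1, the transporter subunit beside Psmb9, was at 86.31 and 79.61 CPM against 117.6 and 123.5 CPM (0.42 ± 0.12, adjusted p = 0.0323). Psmb10 (63.29 and 73.15 against 98.79 and 100.4 CPM, 0.42 ± 0.12, adjusted p = 0.0514) and Psme1 (198.5 and 192.1 against 258.2 and 266.1 CPM, 0.30 ± 0.10, adjusted p = 0.0683) did not pass. Tap2 (0.16, adjusted p = 0.457), Tapbp (0.16, 0.364), Erap1 (0.25, 0.542) and the regulator Nlrc5 (-0.05, 0.932) did not pass either, and Nlrc5 was the only member whose groups overlapped, at 40.64 and 31.79 against 33.61 and 42.21 CPM. The other 9 were higher in both AT38 libraries, as were 37.6% of all genes tested. The median log2 change of the 10 was 0.36, against 0.01 for all genes.

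The neutrophil calls rested on which cells were counted and on the tool. DESeq2 called 1 of the 10 genes. Without vehicle 1 and without AT38 2, only Psme2 and Psmb8 passed; without vehicle 2, only Psme2 and Psmb10; without AT38 1, Psme2, Psmb8 and Psmb9. Clustering with the pathway genes among the variable genes gave 0 calls. Scaling by total UMIs without TMM gave 6, with a median log2 change of all genes of 0.13 instead of 0.01. Keeping the cells marked as doublets gave 6 too. The share of all genes called is not given for the settings so far, so their counts are not read as a result about the members. Adding a cluster of 65 cells, kept out of the class because T cell genes (Cd8a, Cd8b1) led it, also gave 0, against 2% of all genes tested called either way. With those cells Psme2 was at 0.49 (adjusted p = 0.0554) and Psmb8 at 0.42 (adjusted p = 0.105). Psme2 passed under 13 of 14 other settings (tool, scaling, filters, clustering, libraries), Psmb8 under 10, Psmb9 under 8 and Tap1 under 7. All 4 were above 0 in each of them.

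Neutrophils fell into clusters whose share of the class differed between the groups, and whose levels differed for some of the 4 genes. The cluster led by Siglecf made up 21.69% and 26.75% of vehicle neutrophils and 42.0% and 40.43% of AT38 neutrophils, and the cluster led by Il1f9 made up 40.04% and 40.73% against 24.42% and 23.21%. Psmb8 stood at 207.4 and 170.4 CPM with vehicle in the first and at 87.83 and 82.85 CPM in the second. Psme2 was ordered likewise, at 261.2 and 241.1 against 85.64 and 92.15 CPM. Tap1 was not, at 62.68 and 77.76 CPM with vehicle in the first and 72.46 and 74.34 CPM in the second, while Psmb9 was at 123.9 and 134.5 against 80.15 and 89.05 CPM. Within clusters the log2 change of Psmb8 was 0.57 (Il1f9), 0.44 (Acod1), 0.24 (Siglecf) and -1.05 (Hspa1b, 49 UMIs in all), and that of Psme2 0.47, 0.47, 0.22 and -0.12. Tap1 was at 141.1 and 129.3 CPM with AT38 in the Il1f9 cluster (0.88, adjusted p = 0.0533) and at 90.34 and 93.64 CPM in the Siglecf cluster (0.37, adjusted p = 0.691). No member passed within a cluster, where 0.969% (Il1f9), 1.36% (Acod1), 0.155% (Siglecf) and 0% (Hspa1b) of all genes did. For Tap1 and Psmb9 the change was above 0 in all 4 clusters fitted. That of Psmb9 was 0.44 (Il1f9), 0.51 (Acod1), 0.34 (Siglecf) and 0.33 (Hspa1b, 57 UMIs in all). A further cluster of the class, led by Ngp, held 66 cells (16 and 35 with vehicle, 10 and 5 with AT38), too few to fit. Markers of other cells also differed in the class: pancreatic acinar genes, none of the 7 at 0, summed to 55.02 and 48.85 CPM with vehicle and 121.3 and 144.4 CPM with AT38, and 1 of the 3 tested rose. T cell markers summed to 60.05 and 69.27 against 86.92 and 63.97 CPM, none of the 6 at 0, and the class's own 8 markers to 74050 and 78070 against 65380 and 65300 CPM, of which 3 fell. The part of cluster shares and of these markers in the result was not tested.

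**Figure D4:**
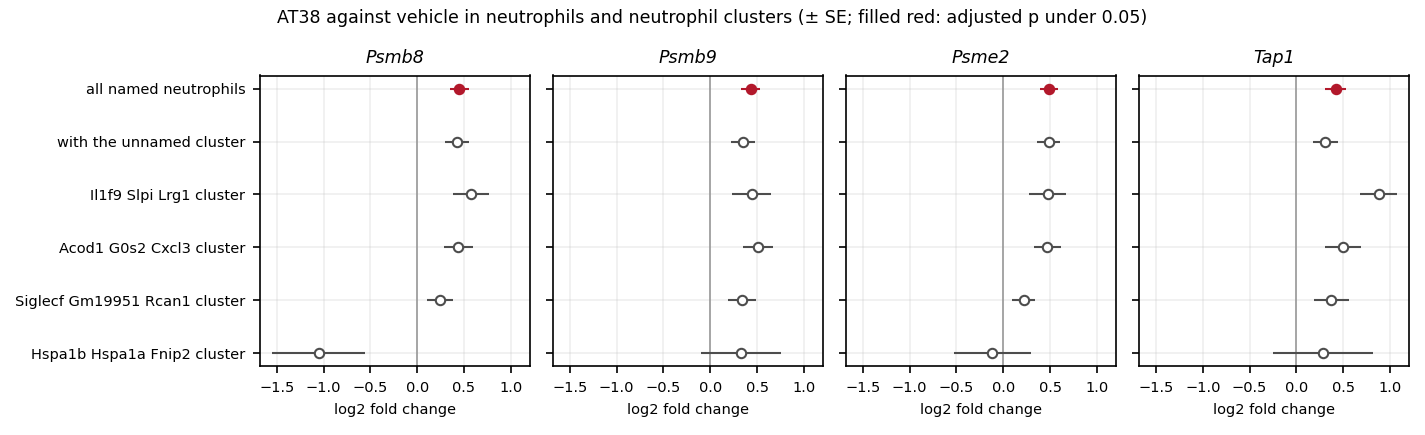
Log2 change ± SE (AT38 against vehicle, 2 libraries each) of the 4 genes that rose in neutrophils, for the whole class, the class with the 65-cell unnamed cluster, and each of 4 clusters; filled red points have an adjusted p under 0.05. The filled points are all in the top line, and the Siglecf cluster is at 0.24 for Psmb8.

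Few other genes of the pathway passed in neutrophils. Of the constitutive catalytic subunits Psmb6 rose (58.26 and 51.18 against 79.93 and 87.53 CPM, 0.50, adjusted p = 0.0312), while Psmb5 (0.00) and Psmb7 (0.07) did not pass. Psma5 rose (0.54, adjusted p = 0.0491) among 11 other subunits of the 20S core, all of which were above 0. None of 18 genes of the 19S regulatory particle, 8 assembly factors and activators or 7 other peptide loading genes passed, B2m (the light chain of MHC class I) among them at 0.09. Isg15 rose (0.54) among 9 type I interferon-induced genes tested, and Gbp4 (0.99, adjusted p = 0.000901) among 7 induced by interferon gamma. Irf1, a transcription factor acting on this pathway, was at -0.04 and did not pass, and Ifng and Ifnb1 were too low to test.

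**Figure D5:**
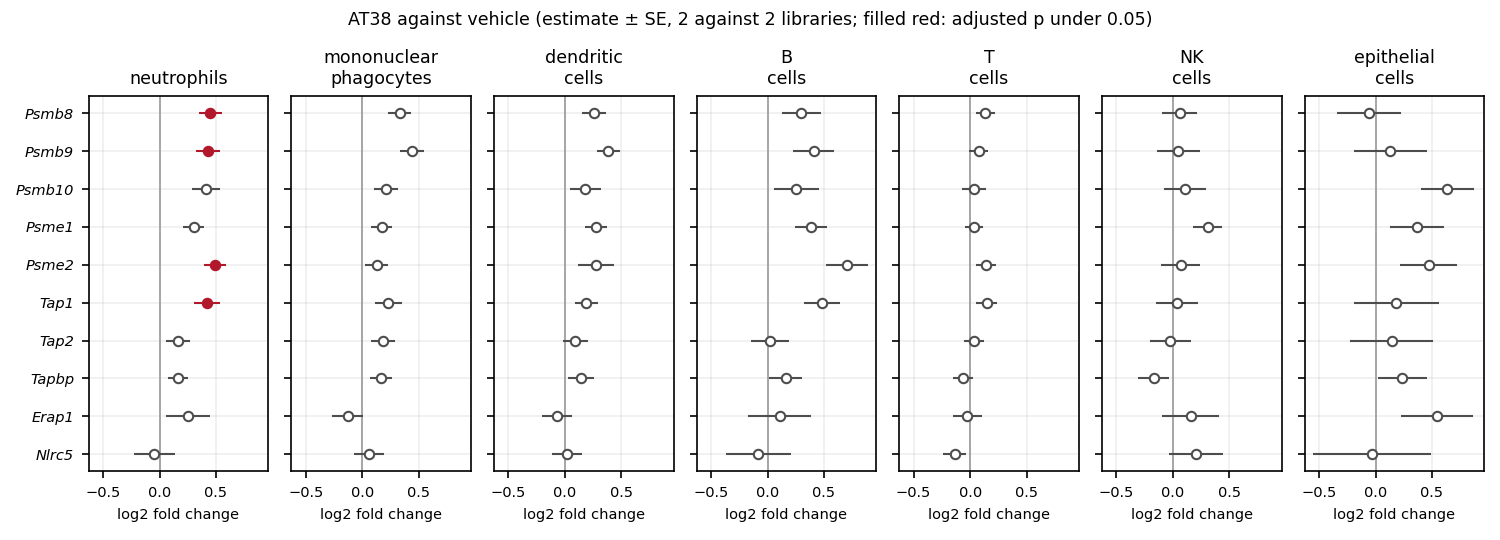
Log2 change ± SE of the 10 genes, AT38 against vehicle (2 libraries each), in 7 broad cell classes; filled red points have an adjusted p under 0.05. The 4 filled points, Psmb8, Psmb9, Psme2 and Tap1, are in neutrophils, between 0.42 and 0.49.

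In mononuclear phagocytes none of the 10 genes passed edgeR's test, where 1.07% of 10851 genes did, and DESeq2 called 0. An unadjusted p under 0.05 was found for 2 of the 10 and for 1059 of the 10851 genes. Psmb9 was at 159.6 and 140.3 CPM with vehicle and 207.8 and 198 CPM with AT38 (log2 change 0.44 ± 0.11, adjusted p = 0.0949). Psmb8 was at 244.5 and 224.2 against 301.2 and 286.4 CPM (0.33 ± 0.10, adjusted p = 0.22). Neither overlapped, and 7 of the 10 genes were higher in both AT38 libraries, against 20% of all genes. The others lay between -0.13 (Erap1) and 0.23 (Tap1), with Psmb10 at 0.21, Tap2 at 0.19, Psme1 at 0.17, Tapbp at 0.17, Psme2 at 0.13 and Nlrc5 at 0.06. The median was 0.18, against 0.00 for all genes. In macrophages none passed (1.54% of all genes did), with Psmb9 at 0.51 (adjusted p = 0.0942) and Psmb8 at 0.41 (0.137). There 3 of the 10 and 1132 of 10537 genes had an unadjusted p under 0.05. In monocytes, where 0.348% of genes passed, none did and the median was 0.08. Macrophage markers in the phagocyte class summed to 6147 and 7589 CPM with vehicle and 9946 and 10670 CPM with AT38, and 2 of the 10 rose; their part in these values was not tested.

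Interferon-induced genes outside the 10 did pass in the same phagocytes. Of 10 type I interferon-induced genes 6 rose, among them Ifit2 (1.69), Ifit3 (1.67), Mx1 (1.38), Irf7 (0.84), Bst2 (0.71) and Oasl2 (0.57), and none fell. Of 9 genes induced by interferon gamma 3 rose, Cxcl9 (221 and 225.7 against 407.4 and 513.6 CPM, 1.05), Iigp1 (1.00) and Gbp4 (0.72). Ifnb1, the gene of interferon beta, rose from 8.377 and 8.444 to 26.7 and 40.18 CPM (1.96, adjusted p = 0.00361), and Stat2 rose (0.65, adjusted p = 0.0446) among 16 receptors and transducers. Irf1 (0.23), B2m (0.17) and Ifng (-0.57) did not pass. None of the 3 constitutive subunits (Psmb5 -0.19, Psmb6 0.14, Psmb7 -0.05), 11 other core subunits, 18 genes of the 19S particle or 7 other peptide loading genes passed. In macrophages alone Ifnb1 (1.77), Bst2 (0.57), Cxcl9 (1.29), Iigp1 (0.98), Ciita (0.82), the transactivator of MHC class II, and Gbp4 (0.78) rose. In monocytes alone 7 of the 10 type I interferon-induced genes rose, among them Ifit2 (2.93), Ifit1 (1.74), Isg15 (1.25) and Bst2 (1.02), and none of the 9 gamma-induced genes did. These lists were chosen with earlier results of these libraries known and are not independent evidence of a direction.

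In dendritic cells none of the 10 passed, where 0.018% of 11100 genes did, and DESeq2 called 0. An unadjusted p under 0.05 was found for 3 of the 10 and for 703 of the 11100 genes. Psmb9 was at 362.6 and 371 CPM with vehicle and 430.9 and 484.7 CPM with AT38 (0.39 ± 0.10, adjusted p = 0.442), and Psme1 at 673 and 708.9 against 765.3 and 832.1 CPM (0.28 ± 0.09, adjusted p = 0.64). Psmb8 was at 539.9 and 553.3 against 572.4 and 676 CPM (0.26, adjusted p = 0.765). These 3 and Tap1 (0.19) were higher in both AT38 libraries, 4 of 10, against 11.5% of all genes. Psme2 (0.28), Psmb10 (0.18), Tapbp (0.14), Tap2 (0.09), Nlrc5 (0.02) and Erap1 (-0.07) overlapped. A fit without AT38 1 left 1 AT38 library, which was assumed to vary as the vehicle libraries do. In that fit the log2 change was 0.50 for Psmb9, 0.48 for Psme2, 0.40 for Psmb8 and 0.36 for Psme1. The other members are not given for it. In type 2 dendritic cells Psmb8 was at 378 and 392.3 against 451.6 and 480.1 CPM (0.34, adjusted p = 0.189). None passed in type 1, type 2 or mature dendritic cells, where 0.281%, 0.189% and 0% of all genes did.

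In B cells none passed, where 0.129% of 7756 genes did, and DESeq2 called 0. An unadjusted p under 0.05 was found for 4 of the 10 and for 604 of the 7756 genes. Psme2, lowest in this class, was at 69.03 and 68.55 CPM with vehicle and 90.2 and 134 CPM with AT38 (0.70 ± 0.19, adjusted p = 0.126). Without AT38 1, which left a single AT38 library, Psme2 was at 0.98. Tap1 was at 126.1 and 129.1 against 161.7 and 186.3 CPM (0.48 ± 0.16, adjusted p = 0.309). The groups did not overlap for either, and 6 of 10 genes were higher in both AT38 libraries, against 14.9% of all genes. Psmb9 was at 0.41, Psme1 at 0.38, Psmb8 at 0.30 and Psmb10 at 0.26, while Tapbp (0.16), Erap1 (0.11), Tap2 (0.02) and Nlrc5 (-0.08) lay lower. The median of the 10 was 0.28, against 0.00 for all genes. Psme2b was at 30.76 and 20.81 CPM with vehicle and 20.42 and 20.02 CPM with AT38, so it was not higher with AT38.

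In T cells the 10 genes differed little between the groups. None passed with edgeR or DESeq2, where 0.0782% of 10234 genes passed with edgeR. None had an unadjusted p under 0.05, against 688 of the 10234 genes. The log2 changes ran from -0.14 to 0.15 with a median of 0.04: Tap1, Psme2 and Psmb8 were between 0.13 and 0.15, Psmb9, Tap2, Psme1 and Psmb10 between 0.03 and 0.08, Erap1 at -0.02 and Tapbp at -0.06. Nlrc5, for which CD8 T cells were the highest class, was at 130.2 and 118.4 CPM with vehicle and 113.7 and 107.6 CPM with AT38 (-0.14 ± 0.10, adjusted p = 0.881). It was the single member lower in both AT38 libraries, against 21.9% of all genes, and Psmb8 the single member higher in both (263.2 and 274.9 against 300.1 and 281.5 CPM), against 14.3%. Ifng, the cytokine that induces these genes, was at 171.9 and 215.1 against 225.5 and 223.8 CPM (0.23, adjusted p = 0.616). None of the 10 passed in CD4, CD8 or regulatory T cells, where 0.0919%, 0.0109% and 0.284% of all genes did; Psmb8 in CD4 T cells was at 0.30 (adjusted p = 0.694) and Tap1 in regulatory T cells at 0.43 (adjusted p = 0.753). In NK cells, where 0.135% of 6656 genes passed, none of the 10 did with edgeR or DESeq2. Only 1, Psme1 (387.3 and 356 against 451.3 and 455.7 CPM, 0.31, adjusted p = 0.704), had an unadjusted p under 0.05, as did 423 of the 6656 genes. Nlrc5 (0.21), Erap1 (0.16), Psmb10, Psme2, Psmb8, Psmb9 and Tap1 (0.04 to 0.11) lay above 0 there, Tap2 (-0.02) and Tapbp (-0.17) below.

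In epithelial cells none passed, where 0.0199% of 10052 genes did, and DESeq2 called 0. Of the 10052 genes 555 had an unadjusted p under 0.05, and of the 10 members only 1 did. That was Psmb10, at 83.23 and 71.14 CPM with vehicle and 115.6 and 107.7 CPM with AT38 (0.63 ± 0.24, adjusted p = 0.859). Psme2 was at 199.9 and 145.5 against 228.9 and 219.3 CPM (0.47 ± 0.25, adjusted p = 0.859). Both were higher in both AT38 libraries, as were 3 of the 10 and 12.1% of all genes. Psmb8 (-0.06), Psmb9 (0.13) and Nlrc5 (-0.03) lay near 0 with standard errors of 0.28, 0.32 and 0.53, from 70, 75, 40 and 35 cells in the 4 libraries. Erap1 was at 0.55, Psme1 at 0.37, Tapbp at 0.24, Tap1 at 0.19 and Tap2 at 0.14, with overlap for each but Erap1. Whether the test could detect changes of this size in so few cells was not simulated.

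In mast cells and basophils, with 23 to 33 cells in a library, 9 of the 10 genes could be tested and none passed with edgeR, nor did any of the 3244 genes tested (0%). No member had an unadjusted p under 0.05, against 126 of the 3244 genes, and DESeq2 called 0. Psmb8 was at 123.3 and 118.6 CPM with vehicle and 204.2 and 163.1 CPM with AT38 (0.58 ± 0.32), higher in both AT38 libraries, as were 17.9% of all genes. The other 8 lay between -0.18 (Tap1) and 0.41 (Psme2), and the groups overlapped for each.

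No gene of the wider pathway and interferon lists passed in dendritic, B, T, NK or epithelial cells. B2m was between 0.04 (T cells) and 0.43 (epithelial cells). Irf1 was at 0.75 in epithelial cells, 0.37 in NK cells, 0.34 in B cells, 0.14 in dendritic cells and 0.05 in T cells. The constitutive subunits had no common direction against their inducible partners: Psmb5 was at 0.52 in epithelial cells, 0.24 in dendritic and B cells, 0.15 in T cells and -0.19 in NK cells, Psmb6 between -0.07 (NK cells) and 0.41 (epithelial cells), and Psmb7 between 0.00 (epithelial cells) and 0.42 (NK cells). Ifnb1 was too low to test in these 5 classes, and Ifng was at -0.62 in dendritic cells, -0.24 in NK cells and -2.09 in epithelial cells, and too low to test in B cells. In regulatory T cells alone Cxcl10, a chemokine induced by interferon gamma, fell by 1.04 on the log2 scale (adjusted p = 0.0225).

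The change with AT38 was also compared between classes, by an interaction term in edgeR with a term for each library. None of the 10 genes passed in any of 9 comparisons. For mononuclear phagocytes against neutrophils, where 1.28% of all genes passed, Erap1 was furthest from 0 (-0.39, adjusted p = 0.531). Psme2 had the smallest p there (-0.36, adjusted p = 0.236). For neutrophils against T cells, where 0.901% passed, Psmb10 (0.38), Psmb9 (0.35), Psme2 (0.35) and Psmb8 (0.31) were furthest from 0. Their adjusted p ran from 0.254 to 0.355. For phagocytes against T cells, where 0.261% passed, Psmb9 was at 0.37 (adjusted p = 0.49). The remaining comparisons set dendritic cells against phagocytes and neutrophils, and NK cells against T cells, phagocytes, neutrophils and B cells, where 0.0517%, 0.791%, 0.0318%, 0.0394%, 0.323% and 0.0387% of all genes passed. So the rise in neutrophils was not shown to differ from the change in any class it was tested against. The classes come from the same 4 libraries, and 6 of the 9 comparisons were added after the class results had been seen.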

How the data were processed

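The files hold UMI counts per gene and cell barcode for 4 libraries, deposited by the authors as sparse matrices. Per the submitters' processing notes they were made with Cell Ranger 3.1.0 on mm10; the annotation behind the counts is not given in the sources used here. Per the labels' protocols the libraries are 10x 3′ v3.1.

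Barcodes with under 200 genes (876) or over 10% mitochondrial UMIs (3142, partly the same) were dropped. Scrublet's own threshold marked 5 cells, so the top scores at 0.8% per 1000 barcodes were removed instead (683). Cells were clustered with scanpy 1.11.5 (2000 variable genes without pathway genes, 30 components, 15 neighbours, Leiden resolution 1) into 29 clusters, and 14 sub-clusters. Names came from fixed markers, but the naming thresholds were tightened with the clusters in view. UMIs were summed per class and library, with at least 20 cells in each, and tested with edgeR 4.0.16 (TMM, filterByExpr, quasi-likelihood, Benjamini-Hochberg over all genes). DESeq2 1.42.0 was an alternative. In data simulated from the means of 3 classes, with 200 genes changed 2-fold, the test recovered 88.5% (phagocytes), 83% (neutrophils) and 90% (T cells). Of the genes called there, 5.35%, 5.68% and 5.76% had not been changed. The members changed by less than 2-fold in these classes, and recovery of changes of that size was not simulated. Gene positions came from GENCODE M21, whose identifiers matched for all 10 genes.

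All 10 members are named in each broad class but mast cells and basophils, where they are given as a range. From the wider lists, genes with an adjusted p under 0.05 are named (at most 6 per list and class), with Psmb5, Psmb6, Psmb7, B2m, Irf1, Ifng and Ifnb1 whatever their value in the same classes; 1 further gene of these lists is not reported here. The members and lists were chosen with earlier results of these data known. Alternatives covered tool, scaling, low-count filter, replicate block, cell filters, doublets, resolution, variable genes and leaving out each library.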

Additional observations from a re-analysis of the deposited data

How the results depend on the processing

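The number of the 10 genes called was recomputed under up to 14 other settings in each class. That number is given without the share of all genes called in a setting, and describes only how the calls depend on settings. In neutrophils (4 called) it was 1 with DESeq2, 1 with a minimum of 500 genes per cell, 0 with pathway genes among the variable genes, 2 to 3 when each library was left out in turn, 0 with the unnamed cluster added and 0 in each of 4 clusters alone; the last 2 settings were chosen after seeing the data. In phagocytes (0 called) it was 1 with no low-count filter, 1 with the replicate block and 1 with no doublet removal. In dendritic cells (0) it was 1 with no low-count filter, and in B cells (0) also 1. Psmb8 (-1.05) and Psme2 (-0.12) changed sign in the Hspa1b cluster, where 49 and 70 UMIs limit them; in the other settings the cause was not tested. With the replicate block the neutrophil count was 5. It was 6 with total UMIs and no TMM, 6 with no doublet removal, 5 with no low-count filter, 5 with a 20% mitochondrial limit, and 4 with the other scaling and at resolution 0.5. The labels do not say that a number marks a shared day or batch: the correlation of same-numbered libraries' deviations ran from -0.033 (neutrophils) to 0.248 (dendritic cells) over 16 classes, with 0.232 in phagocytes, and with 2 numbers the libraries are not read as pairs. Of 84 shares of a subunit pair recomputed without a library, none moved by more than 1 SD, but none could. Leaving out 1 of 2 libraries cannot shift the difference by more than the SD used, so this is no check of stability. The epithelial class did not form with a 20% mitochondrial limit, without doublet removal or at resolution 0.5, so these gave no value. Fewest UMIs stood behind the mast cells and basophils, at 159456 to 278308 in a library.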
